A study of Mus musculus with 1111 samples.

Results

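Among 987 single microglia, 16.3% carried at least 10 CPM (a gene's reads scaled to the cell's total in genes) of both Lyz2 and Cd52. Another 38.3% of cells carried 0 reads of both. The first are called double-positive and the second double-negative. Both classes were chosen by the measured reads of these 2 genes, so the levels of Lyz2 and Cd52 in them are a description and not a finding. A further 25.9% of cells had only Lyz2 and 16.3% had only Cd52, each at 10 CPM or more with 0 reads of the other gene, and 31 cells lay in between.

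The cells came from the brains of mice aged 3 months, taken 20 hours after the animals received plasma proteins carrying the dye NHS-Atto647N. Each was sorted by its plasma signal into plasma intensity none, low or high and profiled by Smart-seq2, a full-length method that gives each sorted cell a library of its own. Double-positive cells numbered 20, 64 and 77 in the groups none, low and high. No label gives a strain, a genotype or an uninjected control, so every group shared the injection. The labels also give each cell a TH number from 1 to 3 whose meaning is not stated, and none names an animal. In TH 1, 2 and 3, double-negative cells numbered 59, 61 and 63 in plasma none, 44, 40 and 46 in plasma low, and 21, 20 and 24 in plasma high. Each plasma group therefore counted as 1 sample of cells, no test was made, and the SD over the 3 TH numbers measures a spread that may be technical. The plasma groups filled different plate columns, so plasma and position on the plate cannot be told apart.

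Lyz2 encodes lysozyme M, a secreted and lysosomal enzyme that cuts bacterial cell walls and is a standard myeloid gene. Cd52 encodes a very short peptide that is heavily glycosylated and held in the outer membrane by a GPI anchor. Microglia in the young healthy brain are known for a homeostatic set of genes that includes P2ry12, Tmem119, Cx3cr1 and the transcription factor gene Sall1. In disease, ageing and developing white matter, some microglia lower that set and raise lipid, lysosomal and antigen-presenting genes such as Apoe, Cd63, B2m and Axl, a state often called disease-associated.

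Lyz2 (ENSMUSG00000069516) lies on the minus strand at chr10:117277331-117282321 in the tables, whose coordinates are those of mouse GRCm38. Its neighbour Lyz1, the lysozyme gene of gut Paneth cells, lies at chr10:117287797-117292868 and is near-identical, so a counter could split reads between the pair. The first coding exon of each is shown because that is where they are told apart, with the bases that differ in capitals, from GENCODE M21 transcripts on the minus strand of GRCm38, chr10:117282107-117282242 for Lyz2 and chr10:117292703-117292838 for Lyz1.
Lyz2: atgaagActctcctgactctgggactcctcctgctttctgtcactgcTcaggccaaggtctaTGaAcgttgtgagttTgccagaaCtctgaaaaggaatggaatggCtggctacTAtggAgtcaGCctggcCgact
Lyz1: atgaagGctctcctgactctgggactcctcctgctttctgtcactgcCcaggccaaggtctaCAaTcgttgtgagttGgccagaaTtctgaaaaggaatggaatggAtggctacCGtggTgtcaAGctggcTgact
Over the 447 coding bases of each gene, stop codon included, 22 bases differ (identity 95.1%), and 14 of these stand in the exon shown. The passing cells held 103035 reads assigned to Lyz2 and 20 assigned to Lyz1, or 0.194 Lyz1 reads per 1000 Lyz2 reads. All 16 cells with a Lyz1 read also had a Lyz2 read. Lyz1 was read in 9 double-positive cells (5.59%) and in 0 double-negative cells, which allows a share of up to 0.794% (3 counts of the total).

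Cd52 (ENSMUSG00000000682) lies on the minus strand at chr4:134082448-134095082. Its coding sequence is shown in its 2 parts because its shortness limits how many fragments a full-length library can give, from exon 1 at chr4:134094934-134094984 and exon 2 at chr4:134093730-134093900.
Cd52 exon 1: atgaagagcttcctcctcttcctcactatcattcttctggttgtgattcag
Cd52 exon 2: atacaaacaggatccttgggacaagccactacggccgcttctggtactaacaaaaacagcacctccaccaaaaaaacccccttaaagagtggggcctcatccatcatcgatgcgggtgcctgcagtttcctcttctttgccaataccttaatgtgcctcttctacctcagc
The 2 parts code for 74 amino acids before the stop codon, and the whole transcript has 514 bases against 1316 for Lyz2. In the passing cells Cd52 held 22667 reads.

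Lyz2 was a nearly all-or-none readout. It had 0 reads in 546 cells, stayed below 10 CPM in 14 and reached 10 CPM in 427, of which 6 lay between 10 and 20 CPM. Cd52 had 0 reads in 641 cells, stayed below 10 CPM in 17 and reached 10 CPM in the remaining cells, of which 12 lay between 10 and 20 CPM. The highest values just outside the threshold were 9.40 CPM for Lyz2 and 8.47 CPM for Cd52, and the lowest inside were 10.1 and 10.8 CPM, with as few as 2 reads. In double-positive cells the median of Lyz2 was 606 CPM and that of Cd52 was 177.8 CPM (46 reads). The level of each gene was much the same when the other was absent, with medians of 579 CPM of Lyz2 in Lyz2-only cells and 171.2 CPM of Cd52 in Cd52-only cells.

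Detection of the genes overlapped a little more than their separate shares would give. Over all cells the product of the shares came to 142.3 double-positive cells, under the number found. Summed over the 9 combinations of plasma group and TH number, called strata here, the product was 151.7 cells, which is closer, and 6 of 9 strata had more double-positive cells than it. Cd52 was found in 41.6% of Lyz2-positive and 30.4% of Lyz2-zero cells of plasma low, and in 46.7% and 42.5% of plasma high. In plasma none the order was the other way, with 18.5% of Lyz2-positive and 22.1% of Lyz2-zero cells.

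The double-positive share was lowest in plasma none and highest in plasma high. The mean over TH numbers was 5.76% ± 3.46 for plasma none (SD, n = 3 TH numbers; 9.48%, 2.65% and 5.13% in TH 1, 2 and 3). Plasma low had 18.2% ± 0.860 (18.6%, 18.8% and 17.2%) and plasma high 26.5% ± 5.84 (29.7%, 19.8% and 30.1%). Plasma high exceeded plasma none by 20.8 ± 3.95 points and in 3 of 3 TH numbers, with no overlap, while in TH 2 plasma high stood 0.988 points above plasma low. Counted over all cells, the double-positive share was 5.78% for none, 18.2% for low and 26.6% for high, with 95% Clopper-Pearson intervals of 3.57 to 8.79, 14.3 to 22.7 and 21.6 to 32.03. These intervals cover counting error only.

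The double-negative share went the other way, from 52.9% ± 1.76 in plasma none through 37.04% ± 2.74 in plasma low to 22.5% ± 2.88 in plasma high, a difference between high and none of -30.4 ± 2.57 points. The 2 single-positive classes stood closer to level. Lyz2-only cells made up 24.9% ± 3.99, 24.2% ± 2.29 and 29.4% ± 3.81 of plasma none, low and high, and Cd52-only cells 14.99% ± 4.05, 16.51% ± 4.24 and 17.5% ± 2.15. High minus none was 4.47 ± 4.35 points for Lyz2-only and 2.55 ± 6.20 points for Cd52-only cells. With every cell thinned to 50000 reads, a read of both genes was found in 5.75%, 19.1% and 25.1% of plasma none, low and high. In TH 2 plasma high then stood below plasma low, with 19.8% against 20.5%.

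**Figure D1:**
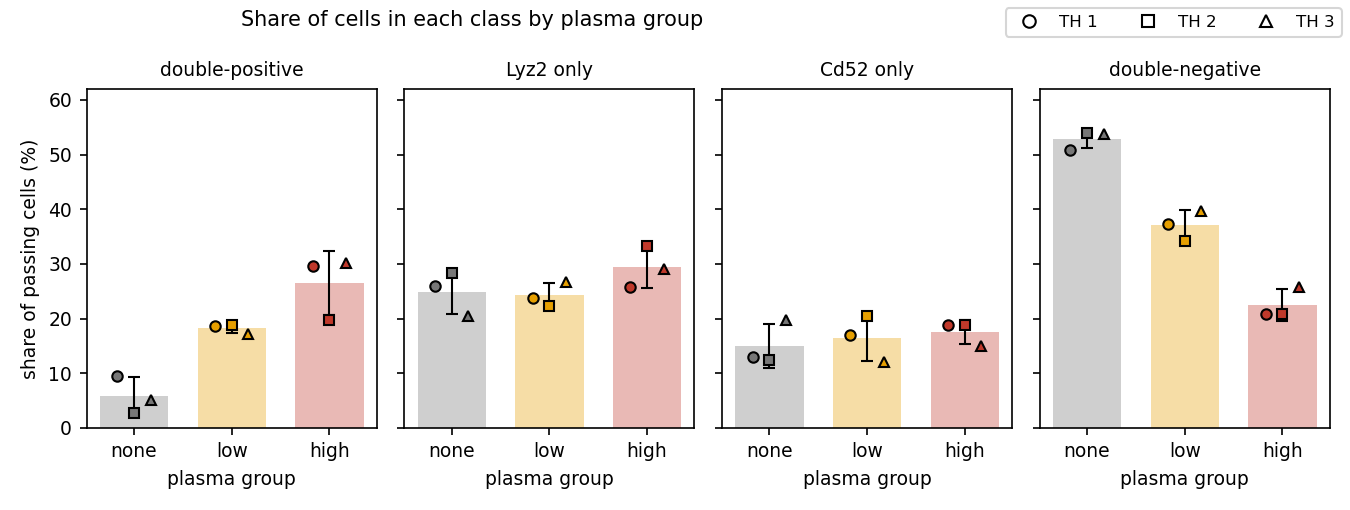
Share of passing cells in each class (vertical axis, percent) by plasma group, with 1 point per TH number, bars at their mean and error bars of 1 SD (n = 3). Double-positive cells go from 5.76% in plasma none to 26.5% in plasma high and double-negative cells from 52.9% to 22.5%, while the 2 single-positive classes stay between 14.99% and 29.4%.

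Double-positive cells carried more RNA species than double-negative cells of the same stratum. Log2 ratios and genes per cell were compared within strata and use the 8 that hold at least 5 cells of each class, since plasma none of TH 2 had only 3 double-positive cells. Shares of cells with a read are over all cells of a class unless a plasma group or a mean over strata is named. Shares over all cells also carry the different makeup of the classes by plasma group. At 50000 reads per cell, the median number of genes with a read was 1816 ± 69.5 in double-positive and 1656 ± 115.5 in double-negative cells (SD over TH numbers), higher by 160 ± 72.3 and in 8 of 8 strata. Without thinning the medians were 2017.5 ± 64.4 and 1834.5 ± 108.4 genes, higher in 7 of 8 strata, and median reads per cell differed by 53570 ± 52882, higher in 5 of 8. Mitochondrial reads were 0.887% ± 0.165 of reads in double-positive and 0.769% ± 0.163 in double-negative cells, and reads of ribosomal protein genes 1.18% ± 0.174 and 1.04% ± 0.0962. At equal depth Cd52-only cells also stood above double-negative cells, by 126.1 ± 31.3 genes and in 8 of 8 strata, and Lyz2-only cells by 36.2 ± 23.1 genes and in 6 of 8.

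**Figure D2:**
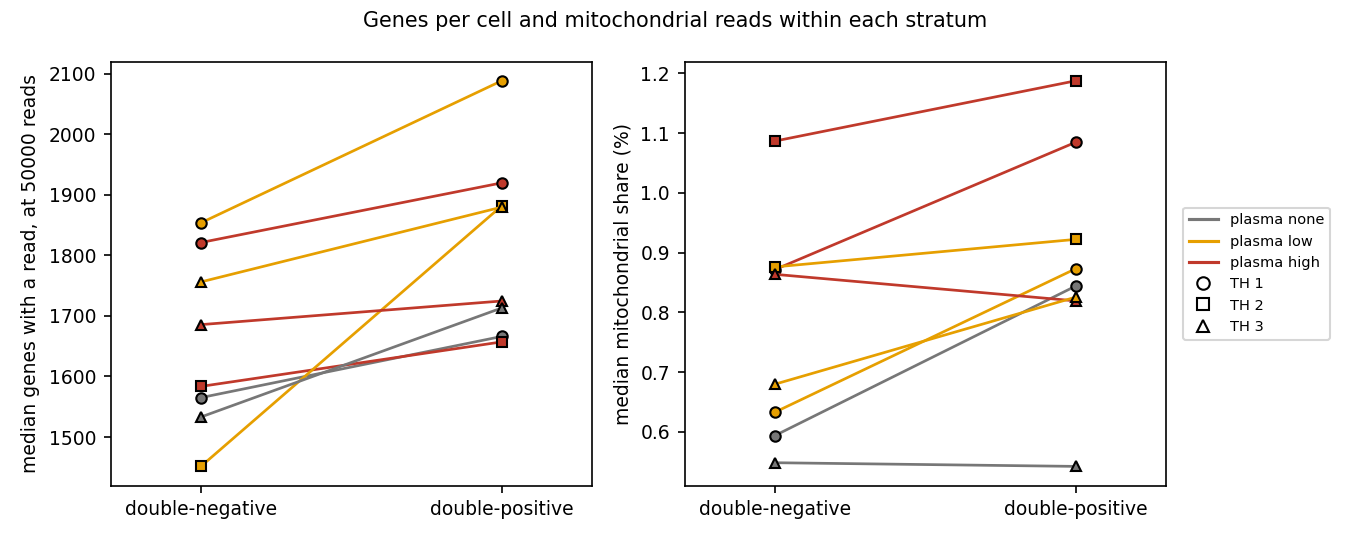
Median genes with a read per cell after thinning to 50000 reads (left) and median mitochondrial share of reads in percent (right) in the double-negative and double-positive cells of each of 8 strata, joined by a line, with colour for plasma group and symbol for TH number. The vertical axes do not start at 0, and the lines go up in 8 of 8 strata for genes and in 6 of 8 for the mitochondrial share.

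All double-positive and double-negative cells had at least 3 of 8 microglia markers at 10 CPM or more. All 9 markers of border-associated macrophages, all 8 of monocytes and all 9 of neutrophils were at 0 in the summed double-positive cells of the 8 strata, Mrc1, Ccr2 and S100a8 among them, against 0 to 60.4, 0 to 27.1 and 0 CPM in double-negative sums. Lymphocyte markers summed to 0 to 53.8 CPM in double-positive and 0 in double-negative cells, endothelial markers to 0 to 82.4 and 0 to 31.02 CPM, and oligodendrocyte markers to 0 to 141.3 and 24.9 to 217.8 CPM. Their part in the gene differences was not tested. Summed over the 8 microglia markers, double-positive cells held 37682 to 52806 CPM across strata and double-negative cells 47033 to 56034 CPM, and the double-positive sum was higher in 1 of 8 strata. No double-positive cell and 1 double-negative cell had 3 or more markers of another cell type.

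Across all other genes, the reads of each class were summed within a stratum and scaled with TMM factors, and log2 of CPM plus 1 was compared. The classes held 52255021 and 96742898 reads in all. The size rule asked for a mean ratio of 1 or more on the log2 scale in either direction, 1 sign in at least 7 of 8 strata, a mean level of 20 CPM or more, and reads in 10% or more of either class. A gene could pass the level and read filters through its higher class alone. Of 5625 genes compared, 54 were higher (0.96%) and 3.82% lower in double-positive cells. With each stratum split in 2 by genes per cell (15 strata, 14 of which then had to share a sign), 0 genes were higher and 0.195% lower, while the ratio of Apoe was 4.12 and that of Cd63 was 0.65. In plasma none the double-positive sums rest on 6 and 11 cells, and 18.4% of their gene values were 0 against 0.169% in double-negative sums. The part of this in the excess of lower genes was not tested. The median log2 ratio in plasma none was -1.01, against -0.09 for plasma low and 0.08 for plasma high. Without plasma none, 4.12% of 5629 genes were higher and 4.39% lower, and 39 of the 54 higher and 59.1% of the lower genes met the rule there too. A ratio of CPM averaged over strata first gave 0.889% higher and 2.22% lower genes. Leaving out TH 1, 2 or 3 gave 3.96%, 2.03% and 5.25% higher and 13.99%, 9.98% and 10.1% lower genes, with fewer strata then needed to point the same way. Leaving out plasma low or plasma high gave 4.47% and 2.20% higher and 15.9% and 17.2% lower genes. Without the top cell of each sum 6 genes were higher and 7.53% lower, and 4 and 92 of these were among the genes first counted.

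The well-measured genes are less exposed to these zeros. Of 801 genes with a mean of at least 200 CPM, 39 (4.87%) were higher and 54 (6.74%) lower in at least 7 of 8 strata. The median log2 ratio over all 801 was -0.07. By plasma group it was -0.32 in none, -0.01 in low and 0.05 in high, so plasma none was still shifted down. In this set, 1 higher and 7 lower genes met the size rule. The cut is on the mean of both classes. On average over strata, the higher gene passed 200 CPM only in double-positive cells and the 7 lower genes only in double-negative cells.

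Apoe, which encodes the main lipid-carrying apolipoprotein of the brain and is a hallmark of disease-associated microglia, was that 1 gene. Across the 8 strata the double-positive sums ranged from 154.5 to 5675 CPM with a median of 312.9, and the double-negative sums from 0 to 186.4 CPM with a median of 65.8. The largest double-positive values were 5675 CPM in plasma high of TH 3, 1783 in plasma high of TH 2 and 1618 in plasma high of TH 1, and the other 5 lay between 154.5 and 400.3 CPM. The ranges overlapped, since the double-negative cells of plasma low of TH 1 (186.4 CPM) stood above the double-positive cells of plasma none in TH 1 (174.8 CPM) and TH 3 (154.5 CPM). The mean log2 ratio was 3.89 ± 1.79, positive in 8 of 8 strata, and one of these (plasma high of TH 2) had 0 double-negative reads, so that its ratio depends on the pseudocount. With plasma high left out the ratio was 1.86, and with a pseudocount of 5 CPM it was 3.48.

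Apoe was read in few cells and at high levels. After thinning, 56 double-positive cells had an Apoe read (34.8%, 95% Clopper-Pearson interval 27.5 to 42.7) against 22 double-negative cells (5.82%, 3.68 to 8.68). Lyz2-only cells lay between with 58 cells (22.7%, 17.7 to 28.3), and Cd52-only cells had 16 (9.94%, 5.79 to 15.6). By plasma group the share in double-positive cells was 25% of 20 cells in none, 28.1% of 64 in low and 42.9% of 77 in high. In Lyz2-only cells it was 11.6%, 20.0% and 36.5%, in Cd52-only cells 7.69%, 10.3% and 11.8%, and in double-negative cells 4.37%, 6.92% and 7.69%. Against double-negative cells the mean log2 ratio of Apoe was 2.22 ± 0.43 in Lyz2-only cells (higher in 7 of 9 strata) and -0.38 ± 2.34 in Cd52-only cells (higher in 3 of 9). These ratios share the double-negative cells, and the difference between the single-positive classes was not tested.

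**Figure D3:**
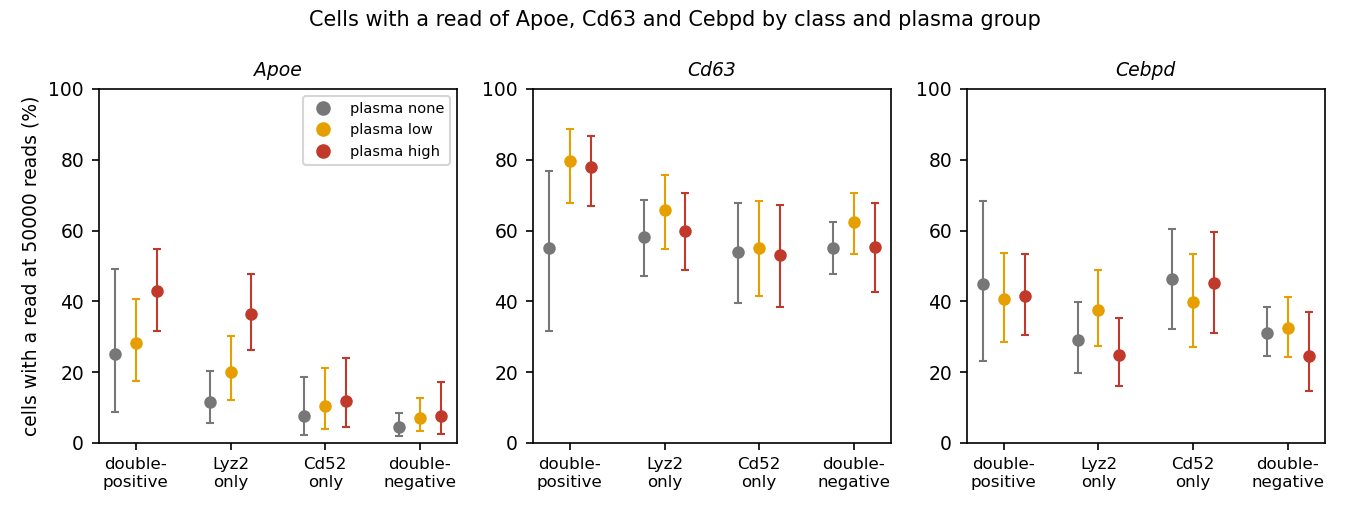
Share of cells with a read after thinning to 50000 reads (vertical axis, percent) for Apoe, Cd63 and Cebpd in the 4 classes, coloured by plasma group, with 95% Clopper-Pearson intervals that cover counting error only. Apoe is highest in double-positive and Lyz2-only cells of plasma high (42.9% and 36.5%), and Cebpd stands between 39.7% and 46.2% in the double-positive and Cd52-only cells and between 24.6% and 37.6% in the other 2 classes.

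The other well-expressed genes at the top of the list differed by under 1 on the log2 scale but in nearly every stratum. Fth1, the heavy chain of the iron store ferritin, held 1319 to 3424 CPM (median 1964) in double-positive and 902 to 1771 CPM (median 1359) in double-negative sums. The ranges overlapped, yet the double-positive sum was higher within each of the 8 strata, with a mean log2 ratio of 0.65 ± 0.12. Cd63, a tetraspanin of late endosomes and lysosomes, held 306.6 to 826 CPM (median 489) and 137.2 to 442 CPM (median 327.3), with a mean log2 ratio of 0.75 ± 0.51 and again 8 of 8 strata higher. It was read at 50000 reads in 75.8% of double-positive cells (68.4 to 82.2) and 57.7% of double-negative cells (52.5 to 62.7). By plasma group the Cd63 shares were 55% against 55.2% for none, 79.7% against 62.3% for low and 77.9% against 55.4% for high, so they stood level in plasma none. With plasma high left out, the ratios were 0.32 for Fth1 and 0.48 for Cd63.

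Apobec3, a cytidine deaminase that restricts retroviruses, was higher in 8 of 8 strata with a mean log2 ratio of 0.97 ± 0.45 (216.5 to 1897 CPM against 133.1 to 393 CPM). Eif5a, a translation elongation factor, had a ratio of 0.87 ± 0.61 (0.34 without plasma high), and Tifa, an adaptor that links TRAF proteins to NF-kB, had 0.68 ± 0.42, each higher in 7 of 8 strata. Ccl9, a chemokine, had 0.60 ± 0.50 and was read in 40.99% of double-positive and 19.6% of double-negative cells at equal depth, with 20% and 16.9% in plasma none. Its ratio was below 0 without the top cell of each sum (-0.26), and Tifa's was below 0 where each stratum was split in 2 by genes per cell (-0.66). Cnnm4, a magnesium transporter gene, had a ratio of 0.68 ± 2.75 and was higher in 7 of 8 strata. In the other stratum, plasma low of TH 3, its double-positive sum was 0, so that ratio depends on the pseudocount, and CPM averaged over strata first gave 1.24.

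Among the larger ratios at lower levels, Galnt11, an enzyme of O-linked glycosylation, was higher in 8 of 8 strata with 1.94 ± 0.40 (77.2 ± 26.97 against 31.1 ± 14.7 CPM). Genes named for their size had a mean of at least 20 CPM and under 25% of a class's reads from 1 cell. Among them the largest mean log2 ratio after Apoe was that of Poglut1, a glucosyltransferase acting on Notch receptors, with 2.88 ± 1.69. Wdr92, a dynein assembly factor, had 1.99 ± 0.70, Abhd11 2.28 ± 1.13 and Pde4dip, a centrosome and Golgi anchor protein, 2.13 ± 1.33. Without plasma high the ratios were 1.61 for Poglut1, 1.17 for Wdr92 and 0.83 for Pde4dip. Kansl3 with 2.06 ± 2.47 and Akr7a5 with 1.98 ± 2.30 did not exceed their spread over TH numbers. Double-negative sums were 0 in plasma high of TH 1 and TH 2 for Poglut1, and of TH 1 and TH 3 for Abhd11. Those of Kansl3 and Akr7a5 also reached 0, so the ratios of these genes depend on the pseudocount. With CPM averaged over strata first, Galnt11 and Poglut1 had 1.28, Wdr92 1.74 and Abhd11 1.86. Pde4dip then had 1.97, Kansl3 1.40 and Akr7a5 1.20. At 50000 reads these 7 genes were read in 9.20% to 27.6% of double-positive and 4.63% to 13.4% of double-negative cells.

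The 8 largest falls among lower genes of at least 200 CPM, predicted genes left out, were Impact, Maml2, Nav2, Pnrc2, Arl14ep, Zfand5, Srsf10 and Arl8b. Impact, a regulator of the translation kinase GCN2, had a mean log2 ratio of -2.31 ± 1.60, and Maml2, a Notch co-activator, -1.99 ± 1.35. Pnrc2, which takes part in mRNA decay, had -1.92 ± 0.53 (-1.19 without plasma none), and Srsf10, a splicing factor, -1.08 ± 0.70 and lower in 8 of 8 strata. At equal depth, however, the shares of cells with a read, averaged over the 8 strata, stood closer. They were 39.8% of double-positive and 37.2% of double-negative cells for Srsf10, and 25.7% and 31.2% for Pnrc2. For Arl8b, a lysosome-positioning GTPase, they were 39.3% and 31.9%, which goes against its ratio of -0.95 ± 0.79. No direction is therefore read for Srsf10 and Arl8b.

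Of the largest falls in ratio at lower levels, Tmem120a had -3.11 ± 0.16, Stradb, a pseudokinase partner of LKB1, -3.25 ± 0.61 and Fcrl1, a gene of the Fc receptor-like family, -3.09 ± 1.36, each lower in 8 of 8 strata. In 2 or 3 strata each their double-positive sums were 0, so these ratios depend on the pseudocount. Taken from CPM averaged over strata first, they were -1.78, -1.38 and -1.62. P2ry10b, Trim34a, Fam76a, Afap1l1 and Pik3ca, the catalytic subunit of PI3 kinase alpha, had -2.76 to -3.41 by the first measure and -1.24 to -2.08 by the second. Without plasma none Pik3ca had -1.63. The SD over TH numbers was 3.28 for P2ry10b, 2.88 for Trim34a and 2.77 for Fam76a. In TH 1 Trim34a stood at 0.05 and Fam76a at -0.02. Tmem120a, Stradb, P2ry10b, Trim34a, Fam76a and Afap1l1 met the filter of reads in 10% of cells only in the double-negative class.

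**Figure D4:**
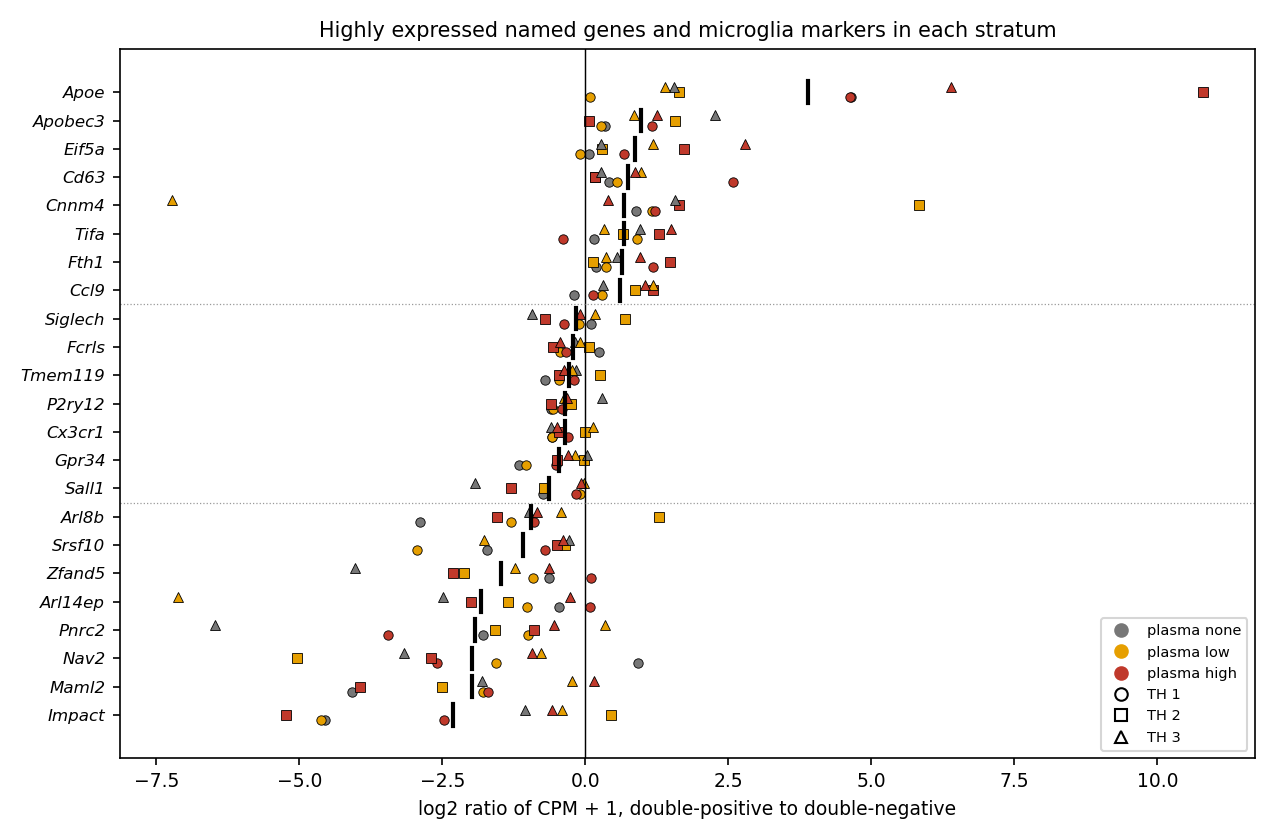
Log2 ratio of CPM plus 1, double-positive to double-negative (horizontal axis), in each of 8 strata for the named genes of at least 200 CPM that were higher (top), 7 microglia markers (middle) and those that were lower (bottom), with colour for plasma group, symbol for TH number and a black bar at the mean. Apoe reaches 10.80 in the stratum with 0 double-negative reads, Fth1 and Cd63 lie right of 0 throughout, and Sall1 lies left of 0 throughout.

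The homeostatic genes stood lower together. Of 17 measured members, 7 were lower and 0 higher in at least 7 of 8 strata, and 1 had a mean ratio above 0. Among all 10373 genes of at least 5 CPM, 1.88% were higher and 5.86% lower by the same rule. The list median was -0.22 ± 0.04, while that over all genes of at least 5 CPM was -0.39 and that over genes of at least 200 CPM, a level every member exceeded, was -0.07. Without plasma none the list had -0.25, genes of at least 200 CPM 0.03 and genes of at least 5 CPM -0.06. List members named here and below beyond the extremes of each list were picked after their values were seen.

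P2ry12, the ADP receptor that steers microglial processes, held 6269 to 10791 CPM (median 7560) in double-positive and 8861 to 11229 CPM (median 10264) in double-negative sums. It was lower in 7 of 8 strata, all but plasma none of TH 3, with a mean log2 ratio of -0.35 ± 0.20. Cx3cr1, the fractalkine receptor, held 5009 to 7774 CPM (median 5748) and 7102 to 8790 CPM (median 7652), with -0.36 ± 0.13. P2ry13, the sister receptor of P2ry12, was lower in 8 of 8 strata with -0.43 ± 0.08. Gpr34, a lysophosphatidylserine receptor, had -0.46 ± 0.41, Tmem119 -0.29 ± 0.18 and Selplg, a selectin ligand, -0.15 ± 0.12, each lower in 7 of 8 strata.

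Sall1, the transcription factor gene that maintains microglial identity, held 76.1 to 389.9 CPM (median 277.8) in double-positive and 200.2 to 584 CPM (median 364.2) in double-negative sums. It was lower in 8 of 8 strata with a mean log2 ratio of -0.63 ± 0.34. Its relative Sall3 was also lower in 8 of 8 strata, with -1.22 ± 0.34. Without plasma none the ratios were -0.39 for Sall1 and -0.80 for Sall3. The share of cells with a Sall1 read at equal depth was 52.2% of double-positive and 53.97% of double-negative cells, and in plasma none it was 65% and 49.7%. For Sall3 the share averaged over strata was 35.2% and 38.1%, higher in 4 strata and lower in 4. Maf, another transcription factor gene of macrophages, was lower in 7 of 8 strata with -0.68 ± 0.28. Fcrls, a microglia-enriched scavenger-type receptor, was read at equal depth in 84.5% of double-positive (77.9 to 89.7) and 94.97% of double-negative cells (92.3 to 96.95). Its mean log2 ratio was -0.22 ± 0.04 (-0.08 without plasma high). Siglech, Sparc, Olfml3, Csf1r and Cst3 had ratios between -0.18 and 0.07, and none pointed the same way in 7 of 8 strata.

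In the single-positive cells the homeostatic list was nearer to the double-negative cells, with medians of -0.01 in Lyz2-only and -0.08 in Cd52-only cells. The 8 microglia markers had -0.32 ± 0.09 in double-positive, -0.02 in Lyz2-only and -0.14 in Cd52-only cells. Whether the double-positive value differs from the single-positive ones was not tested.

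The disease-associated list stood higher. Of 19 measured members, 17 had a mean ratio above 0, and 8 were higher and 0 lower in at least 7 of 8 strata: Apoe, Tyrobp, Axl, Cd9, Cd63, Fth1, B2m and Timp2. By that rule 1.88% of all genes of at least 5 CPM were higher and 5.86% lower. Their median ratio was -0.39, so most had a mean ratio below 0. These shares also stand as background for the counts of the lists below. The list median was 0.43 ± 0.31, with 0.60, 0.54 and 0.04 in TH 1, 2 and 3, so that it rests on TH 1 and TH 2. By plasma group it was -0.02 in none, 0.44 in low and 0.80 in high. Timp2, a metalloproteinase inhibitor, had 0.56 ± 0.12, Cd9, a tetraspanin, 0.34 ± 0.37 and Tyrobp, the signalling adaptor of TREM2, 0.36 ± 0.48. Trem2 itself had -0.19 ± 0.30. Ctsb, Ctsd and Ctsl, lysosomal proteases, had 0.42 ± 0.32, 0.17 ± 0.21 and 0.16 ± 0.05.

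Axl, a receptor for phosphatidylserine on dying cells, was rare. It was read in 20 double-positive cells (12.4%, 7.76 to 18.5) and 3 double-negative cells (0.794%, 0.164 to 2.30), with 35.8 and 2.17 CPM on average. Lpl, lipoprotein lipase, was read in 16.8% (11.4 to 23.5) and 4.76% (2.85 to 7.42), and Cst7, a cystatin, in 6.83% (3.46 to 11.9) and 1.06% (0.289 to 2.69). In the 20 double-positive cells of plasma none, Axl was read in 5% and Lpl and Cst7 in none, against 0.546%, 3.28% and 1.09% of double-negative cells. Without thinning, Lpl was read in 1 of these 20 cells. For Lyz2-only and Cd52-only cells the shares were 3.12% and 4.97% for Axl, 7.81% and 9.32% for Lpl, and 2.34% and 0.621% for Cst7.

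Antigen presentation genes gave a median of 0.42 ± 0.32 over 14 measured members. It was 0.62, 0.33 and -0.02 in TH 1, 2 and 3, and -0.01, 0.35 and 0.57 in plasma none, low and high. Of the members, 4 were higher and 1 lower in at least 7 of 8 strata. The higher ones were the MHC class I heavy chains H2-K1 with 0.50 ± 0.34 and H2-D1 with 0.41 ± 0.85, their light chain B2m with 0.43 ± 0.40, and Cd74, the invariant chain of MHC class II, with 3.15 ± 2.29. Cd74 was read in 14.3% of double-positive cells (9.28 to 20.7), 1.85% of double-negative (0.748 to 3.78), 5.86% of Lyz2-only and 9.32% of Cd52-only cells. Tap2, a subunit of the peptide transporter, was lower in 8 of 8 strata with -1.39 ± 1.13 (-0.70 without plasma none), while its partner Tap1 had 1.71 ± 2.60. The list median in Cd52-only cells was 0.30 and in Lyz2-only cells 0.02.

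Lysosomal genes gave a median of 0.14 ± 0.11 over 30 members, of which 23 had a mean ratio above 0. Those higher in at least 7 of 8 strata were Cd63, Ctss, a cathepsin, with 0.25 ± 0.16, Npc2, a cholesterol carrier, with 0.49 ± 0.19 and Grn, progranulin, with 0.29 ± 0.22. Npc1, which works with Npc2 in exporting cholesterol from lysosomes, was lower in 7 of 8 strata with -1.27 ± 0.32 (-0.65 without plasma none). Atp6v1a, the catalytic subunit of the lysosomal proton pump, had the largest mean of the list with 1.26 ± 0.84 (0.70 without plasma high) and was read in 24.8% of double-positive and 10.8% of double-negative cells. The list had -0.16 in plasma none, 0.22 in low and 0.35 in high.

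Ribosomal protein genes, a list added with results in view, had 62 of 79 members above 0 and a median of 0.26 ± 0.26. In at least 7 of 8 strata 15 were higher, among them Rps16 with 0.46 ± 0.04, Rpl30 with 0.60 ± 0.22 and Rps12 with 0.66 ± 0.18, and 1 was lower, Rpl5 with -0.39 ± 0.30. TH 1 had the highest list median with 0.50, against 0.01 in TH 2 and 0.14 in TH 3. Gene length moved with the ratio as well. Among 801 genes of at least 200 CPM, ranked by exon length and cut in 3 equal groups, the median ratio was 0.04 in the shortest, -0.09 in the middle and -0.16 in the longest group. Its part in the ribosomal and other results was not tested.

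Among Fc receptor and complement genes, Fcgr3 with 0.25 ± 0.22, Fcgr1 with 0.15 ± 0.48 and Tyrobp were the 3 of 10 genes of the Fc receptor list that were higher in at least 7 of 8 strata. C1qa, a chain of the complement starter C1q, had 0.18 ± 0.09, with C1qb at 0.17 ± 0.11 and C1qc at 0.18 ± 0.05. The extremes of these lists, Fcgr4 with 1.34 ± 3.12, the kinase gene Syk with -0.48 ± 0.78, and the anaphylatoxin receptors C3ar1 with 0.44 ± 0.52 and C5ar2 with -0.34 ± 0.51, lay within their spread. Prdx1, a peroxide-reducing enzyme, was higher in 8 of 8 strata with 0.64 ± 0.26, and Ftl1, the light chain of ferritin, had 0.42 ± 0.22. Cebpd, a transcription factor gene of the myeloid C/EBP family, was higher in 7 of 8 strata with 0.52 ± 0.31. Its ratio was 0.70 ± 0.10 in Cd52-only cells and -0.18 ± 0.15 in Lyz2-only cells.

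Cytokine, interferon and proliferation genes gave no readable direction. The inflammatory cytokine list had a median of 0.60 ± 0.79 and the interferon list 0.53 ± 0.85, each within its spread over TH numbers. A single cell held 88.8% of the Ccl4 reads of the double-positive class, and the double-negative sum was 0 in 6 of 8 strata, so the ratio of 2.25 ± 2.90 of this chemokine depends on the pseudocount. The proliferation list had -1.05 ± 1.42, with 0.00 in TH 1 and TH 2 and -2.46 in TH 3. The medians of the other lists were 0.18 ± 0.17 for cytosolic housekeeping genes, 0.23 ± 0.32 for the mitochondrial genome, 0.22 ± 0.15 for immediate early genes and 0.11 ± 0.09 for antimicrobial and NADPH oxidase genes. They were 0.03 ± 0.25 for small surface proteins, 0.06 ± 0.16 for iron handling, -0.17 ± 0.07 for myeloid transcription factors and -0.25 ± 0.32 for endocytosis. Without plasma none the transcription factors had 0.03. In TH 1, 2 and 3 the antimicrobial list had -0.04, 0.04 and 0.13. For nuclear RNAs and chromatin genes the median was -0.23, but -0.10, -0.02 and -0.08 in TH 1, 2 and 3 and -0.0004 without plasma none.

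Of the highest and lowest genes of each list, the glycolytic enzyme gene Tpi1 with 1.29 ± 0.42, the endosomal GTPase gene Rab5c with 1.17 ± 0.48 and the ribosomal protein gene Rps15 with 0.77 ± 0.65 were each higher in 7 of 8 strata. Without plasma high Tpi1 had 0.66. Ncf4, a subunit of the NADPH oxidase, had -1.24 ± 0.43 and -0.02 without plasma none, and Ms4a6c had -2.66 ± 1.03 and Ncor1, a nuclear receptor co-repressor, -1.73 ± 0.92, but -1.73 and -0.55 without plasma none. Those not named elsewhere lay between -2.45 ± 1.496 for Tyms, an enzyme of thymidine synthesis, and 1.16 ± 0.91 for Snhg1, a nuclear RNA.

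**Figure D5:**
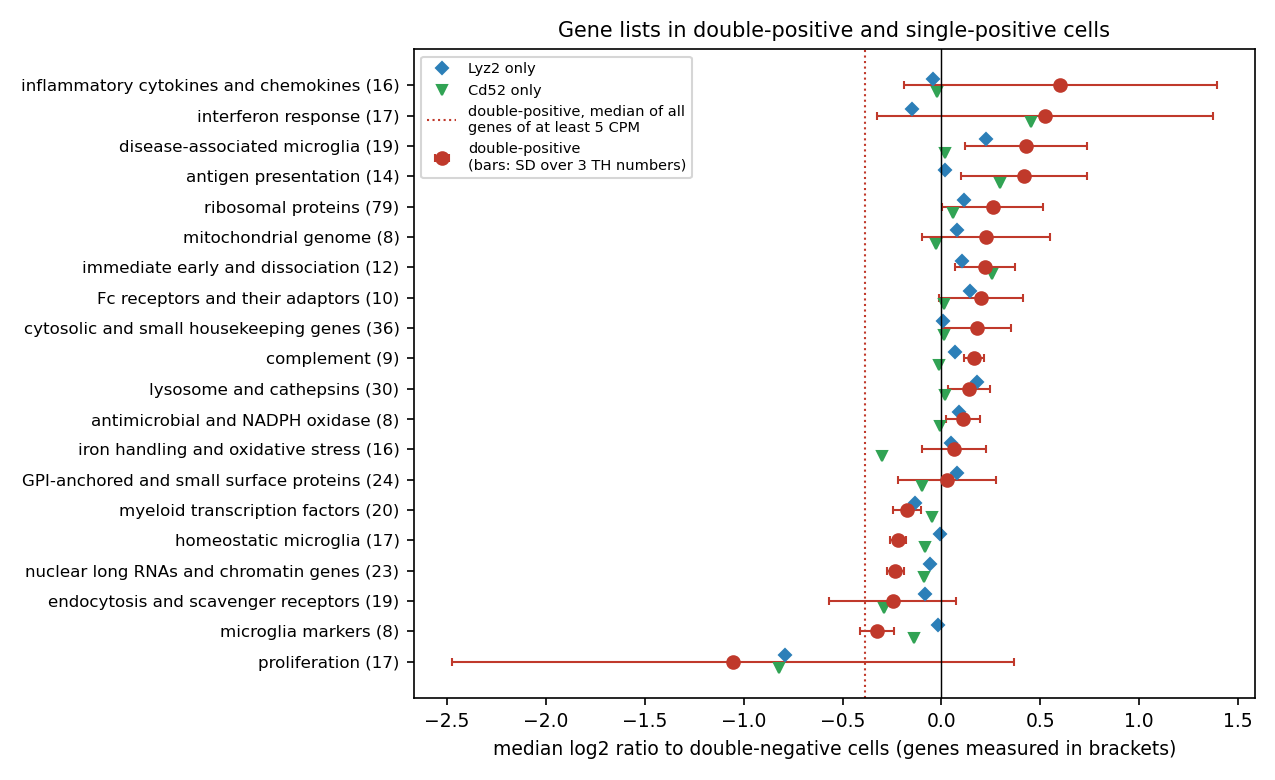
Median log2 ratio to double-negative cells (horizontal axis) of each gene list in double-positive cells (circles, error bars of 1 SD over 3 TH numbers), Lyz2-only cells (diamonds) and Cd52-only cells (triangles), with the number of genes measured in brackets. The dotted line at -0.39 is the double-positive median over all genes of at least 5 CPM, and the disease-associated list stands at 0.43, 0.23 and 0.02 in the 3 classes.

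The same size rule was also applied to the single-positive classes, with 9 strata each. In Lyz2-only cells 30 of 5410 genes were higher (0.555%) and 64 lower (1.18%) than in double-negative cells. In Cd52-only cells 19 of 5499 genes were higher (0.346%) and 130 lower (2.36%). The disease-associated list had 0.23 in Lyz2-only and 0.02 in Cd52-only cells, and Cd63 had 0.46 ± 0.26 and -0.20 ± 0.41. Because all 3 comparisons use the same double-negative cells, and the single-positive ones one stratum more, these counts are set side by side and not compared.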

How the data were processed

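The deposited tables hold whole-number read counts per gene and cell, 1 table per TH number. In 1 column the deposited values are expected counts, because 2 values are not whole, and they were used as deposited in sums. The submitters' processing notes name bcl2fastq, Trim Galore, STAR 2.5.3a, Seurat and build mm10 without roles. How reads were counted, and whether by strand, is not given in the sources used here, so overlapping and antisense genes cannot be told apart. Of 1111 labelled cells, 1045 had a column and 66 were not analysed here. Cells with at least 50000 reads in genes and 500 genes were kept (987). By plasma signal they numbered 346 (none), 351 (low) and 290 (high), with 161 double-positive, 378 double-negative, 256 Lyz2-only and 161 Cd52-only cells. Wells were sorted with 1 cell each, and neither doublet calling nor clustering was used.

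Counts were summed per class within plasma group and TH number, scaled to CPM with TMM factors (edgeR 4.0.16, R 4.3.3), and compared as log2(CPM + 1). No test was run. A TH value is the mean over its plasma groups, and the SD is over 3 TH numbers. The calculation was tested on simulated counts. Lists used genes of at least 5 CPM. Genes named were the 8 largest higher and lower among size-rule genes whose top cell held under 25% of reads, the same among genes of at least 200 CPM and 1 sign in all but at most 1 stratum, the extremes of each list at 20 CPM or more, Lyz1 and the markers, leaving out predicted genes. The members, lists and rules were chosen with earlier results of these data known. Gene names and coordinates are those of the tables, and 35546 of 35583 IDs were found in GENCODE M21 (GRCm38). Alternatives were library-size and DESeq2 1.42.0 scaling, CPM filters, a pseudocount, thinning, equal cell weights, strata split by genes per cell, top cells left out, other thresholds, and leaving out a TH number, a plasma group, edge wells or cells with other markers, and, added after seeing the data, CPM averaged over strata first and at least 15 cells of each class. The values of 1 microglia marker are not reported here.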

Additional observations from a re-analysis of the deposited data

Results flagged for a closer look

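The lysosome and cathepsin list had all strata of plasma none below 0 (mean -0.14) and all strata of plasma low (0.19) and plasma high (0.33) above 0. The differences were 0.32 between low and none and 0.47 between high and none. The antimicrobial and NADPH oxidase list did the same, with -0.25 for none, 0.23 for low and 0.37 for high, and differences of 0.48 and 0.62. Neither difference was tested. Plasma none rests on 2 strata with 6 and 11 double-positive cells, where the median over all genes tested was also below 0 (-1.01).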

How the results depend on the processing

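As a mean over TH numbers, the double-positive share kept its order over plasma groups. With cells thinned, plasma high of TH 2 stood below plasma low (-0.72 points). The difference between plasma high and none was 14.6 points with positivity set at 100 CPM, where plasma low and high had 10.3% and 19.2%. At 50000 reads plasma low had 19.1% (also 19.1% with cells of 100000 reads and 1000 genes), and double-negative cells made up 54.9% of plasma none and 25.9% of plasma high. Without the outermost wells that first share was 54.9%.

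The share of genes meeting the size rule depended on the processing. Genes higher in double-positive cells made up 0.545% with a mean of at least 50 CPM, 0.534% with positivity at 100 CPM, 0.338% with positivity at any read, 0.147% without the top cell of each sum, 1.74% without the outermost wells and 4.12% with at least 15 cells of each class. Lower genes made up 6.34% with positivity at 100 CPM, 7.53% without the top cell and 2.22% with the ratio of CPM averaged over strata. With strata split by genes per cell (15 strata), 0 genes were higher and 0.195% lower. With 1 TH number or plasma group left out, higher genes made up 2.03% to 5.25% and lower genes 4.39% to 17.2%. The averaged CPM and the minimum of 15 cells were chosen after seeing the data. Library size or DESeq2 scaling gave 1.03% and 0.999% higher genes, and thinning 0.818%, of which 24 were among the 54.

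The homeostatic list stayed below 0 in every one of 22 alternatives: -0.41 with strata split, -0.33 without the top cell, -0.17 with positivity at any read, -0.28 without the outermost wells, and -0.33 at its lowest with a TH number or plasma group left out. The disease-associated list stayed between 0.17 and 0.69, and the lowest Apoe ratio was 1.86, without plasma high. Of lists whose median exceeded its SD over TH numbers, directions turned for the immediate early list (-0.075 thinned, -0.20 without the top cell, -0.13 at 100 CPM, -0.35 without plasma low, -0.10 without plasma high). They turned for the antimicrobial list too (-0.038 thinned, -0.0063 with cells weighted equally, -0.31 with strata split, -0.036 without the top cell, and -0.066 to 0.20 with a TH number or plasma group left out). They also turned for cytosolic housekeeping genes (-0.068) and Tifa (-0.66) with strata split, Ccl9 (-0.26 without the top cell, -0.24 at 100 CPM, -0.21 at any read), Cebpd (-0.35 at 100 CPM), complement (-0.013 without TH 1, up to 0.20 without plasma none) and myeloid transcription factors (0.027 without plasma none or with at least 15 cells, down to -0.50 without plasma low). Of lists within that SD, iron handling kept its sign in 15 of 22 alternatives, small surface proteins in 16, Fc receptors in 19, interferon genes in 20, and cytokine and proliferation genes in 21 each. Beyond fewer cells or strata, the cause was not tested. No paired analysis was possible because groups of 1 sample allow no test; the classes were compared within strata throughout. The 6 and 11 double-positive cells of plasma none limit what its sums can show.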
